A study of Mus musculus with 8 samples.

Results

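Expression of 9 genes encoding enzymes of the tricarboxylic acid cycle was followed in donor T cells recovered from the spleen of mice after hematopoietic cell transplantation (HCT). The genes were chosen by symbol, as the rows for Cs, Idh2, Idh3a, Idh3b, Ogdh, Dlst, Suclg1, Fh1 and Mdh2, and they made up 9 of the 25078 gene rows. All 9 passed the filter on low counts, which kept 12428 genes for testing. A further 8 nuclear genes for subunits of the cycle (Idh3g, Dld, Sucla2, Suclg2, Sdha, Sdhb, Sdhc and Sdhd) were measured beside them.

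Donors were C57BL/6 mice, either WT or STAT3KO, in which the floxed Stat3 gene is deleted by Cre driven from the CD4 promoter, so that both CD4+ and CD8+ T cells lose it. All recipients were BALB/c mice that were lethally irradiated and given the donor T cells together with T cell-depleted bone marrow from WT donors. On day 6 after HCT, donor cells positive for H-2Kb and TCRb were sorted into CD4+ and CD8+ T cells. This gave 4 groups (CD4+ and CD8+ T cells of each genotype) with 2 RNA-seq libraries each, and each library pooled cells from several recipients. Neither the age of the mice nor whether WT donors carried Cre is given in the sources used here. The study describes severe acute graft-versus-host disease (GVHD) in hosts of WT T cells. In hosts of STAT3-deficient T cells it reports a mild and transient acute form, and in places it calls them non-GVHD recipients. Donor genotype and host disease therefore cannot be told apart in the comparisons of genotypes. The p-values below measure the spread between the pooled libraries.

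The cycle runs in the mitochondrial matrix, where it oxidizes acetyl-CoA to carbon dioxide and hands the electrons to NAD and FAD for the respiratory chain. Citrate synthase (Cs) joins acetyl-CoA to oxaloacetate, and isocitrate dehydrogenase later makes 2-oxoglutarate, by an NAD-dependent enzyme of Idh3a, Idh3b and Idh3g subunits or by the NADP-dependent enzyme Idh2. The 2-oxoglutarate dehydrogenase complex (Ogdh, Dlst and Dld), succinyl-CoA ligase (Suclg1 with Sucla2 or Suclg2), succinate dehydrogenase (Sdha to Sdhd), fumarase (Fh1) and malate dehydrogenase (Mdh2) then return the carbon to oxaloacetate. Activated T cells use the cycle for ATP and also draw citrate, 2-oxoglutarate and malate out of it for lipid synthesis, chromatin-modifying enzymes and redox balance.

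The start regions of the members that passed the test in any comparison are shown because they are the DNA next to the genes whose transcripts differed, and no binding was measured. Each sequence is a RefSeq window of 300 bases on GRCm38.p6, with 250 bases before and 50 bases after the transcript start, read 5′ to 3′ on the strand of the gene. Capitals mark CCAAT on either strand (ATTGG is the same word on the other strand). Idh3a is the member without a window. The windows lie at chr7:80115301-80115600 (minus strand) for Idh2, chr10:128337477-128337776 (plus strand) for Cs, chr1:175625586-175625885 (minus strand) for Fh1 and chr5:135778399-135778698 (plus strand) for Mdh2.
Idh2: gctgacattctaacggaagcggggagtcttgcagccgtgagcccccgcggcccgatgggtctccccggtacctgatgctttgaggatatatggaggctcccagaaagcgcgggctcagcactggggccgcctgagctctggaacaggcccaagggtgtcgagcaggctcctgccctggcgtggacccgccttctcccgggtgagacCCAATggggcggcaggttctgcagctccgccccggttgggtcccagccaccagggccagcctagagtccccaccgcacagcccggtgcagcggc
Cs: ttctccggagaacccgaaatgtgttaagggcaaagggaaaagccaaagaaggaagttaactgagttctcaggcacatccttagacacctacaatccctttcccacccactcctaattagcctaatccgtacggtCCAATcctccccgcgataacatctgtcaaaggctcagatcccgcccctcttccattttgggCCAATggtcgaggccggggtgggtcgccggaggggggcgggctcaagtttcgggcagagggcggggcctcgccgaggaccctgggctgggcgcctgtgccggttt
Fh1: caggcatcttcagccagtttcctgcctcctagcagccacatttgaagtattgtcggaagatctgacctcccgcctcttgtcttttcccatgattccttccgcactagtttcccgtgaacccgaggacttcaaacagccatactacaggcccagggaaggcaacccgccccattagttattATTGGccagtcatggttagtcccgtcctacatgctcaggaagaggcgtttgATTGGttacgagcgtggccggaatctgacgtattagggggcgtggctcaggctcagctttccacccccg
Mdh2: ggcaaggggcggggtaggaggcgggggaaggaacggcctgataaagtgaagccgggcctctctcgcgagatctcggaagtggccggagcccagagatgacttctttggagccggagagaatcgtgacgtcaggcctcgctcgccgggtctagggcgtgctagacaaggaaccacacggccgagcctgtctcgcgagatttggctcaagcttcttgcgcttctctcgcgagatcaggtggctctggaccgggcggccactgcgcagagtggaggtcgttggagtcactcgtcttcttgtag

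Cs and Fh1 held CCAAT at 2 places each and Idh2 at 1, and Mdh2 held none. CCAAT occurred in 37.4% of all 32851 windows. TTCNNNGAA, the letters that STAT dimers are known to bind, occurred in 8.3% of all windows and in none of the 8 member genes with a window. TNAAGGTCA, which the receptor ERRalpha is known to bind, was found in 1.28% of all windows and in no member. CCGGAAGT, an ETS motif, occurred in Dlst and in 3.89% of all windows. CACGTG, the E-box, occurred in Ogdh windows and in 7.15% of all windows. These matches describe letters only, searched on both strands.

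Library depth was even, with 20171396 to 23282757 counts assigned to genes. Stat3 itself fell to 32.4% of WT in CD4+ and 30.3% of WT in CD8+ T cells, and Cd4, Cd8a and Cd8b1 followed the sort. Hba-a1 and Hbb-bs, which define red cells, were at 0 in every library. The summed level of 6 macrophage markers was higher in replicate 2 than in replicate 1 of all 4 groups, from 18.4 to 120.9 CPM (counts scaled to library size) over the libraries. Of these markers, Cd68 was lower in replicate 2 of STAT3KO CD8+ T cells (44.0 and 39.9 CPM). Every other marker of the list was higher in replicate 2 of all 4 groups, as for C1qa at 1.03 and 22.9 CPM in WT CD8+ T cells. The sum of 6 pancreas markers was 60.7 CPM in STAT3KO CD8+ replicate 2 and 4.36 to 15.2 in the other libraries.

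The level of each gene per exon length was compared as RPKM (reads scaled to exon length and library size). Mdh2 ranked highest, then Idh3b, then Cs, in all 4 groups, and Idh2 ranked lowest. In WT CD4+ T cells mean RPKM was 160 ± 3.85 for Mdh2, 119 ± 9.60 for Idh3b and 94.2 ± 4.47 for Cs (SD, n = 2). Suclg1, with libraries at 65.8 and 102.7 RPKM, overlapped Cs there and was followed by Dlst at 62.6 ± 0.481, Idh3a at 40.5 ± 0.562 and Fh1 at 36.6 ± 0.821. Ogdh, at 25.7 and 39.9 RPKM, overlapped Fh1, and Idh2 stood apart at 15.2 ± 0.539. The spread among the 9 was thus wide, with Mdh2 at the 97.5th percentile and Idh2 at the 60.8th percentile of tested genes. 

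In STAT3KO CD4+ T cells the order was the same, and neighbouring libraries overlapped for Suclg1 and Dlst, for Idh3a and Fh1, and for Fh1 and Ogdh. In WT CD8+ T cells Suclg1, Dlst and Idh3a overlapped at 69.0 ± 13.4, 68.7 ± 1.15 and 66.8 ± 2.57 RPKM. STAT3KO CD8+ T cells placed Idh3a next after Cs, at 69.5 ± 8.29, but Idh3a, Dlst, Suclg1 and Fh1 followed one another with overlapping libraries. Idh2 stood at the 60.8th percentile of tested genes in WT CD4+, the 45.6th in STAT3KO CD4+, the 38.7th in WT CD8+ and the 36.7th in STAT3KO CD8+ T cells. Summed over the 9 members, RPKM was 625 and 664 for CD4+ and 740 and 748 for CD8+ libraries of WT donors, and 609 and 617 for CD4+ and 684 and 694 for CD8+ libraries of STAT3KO donors. Members carried 49.1% to 54.8% of the RPKM summed over these 17 cycle subunits in each library.

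**Figure D1:**
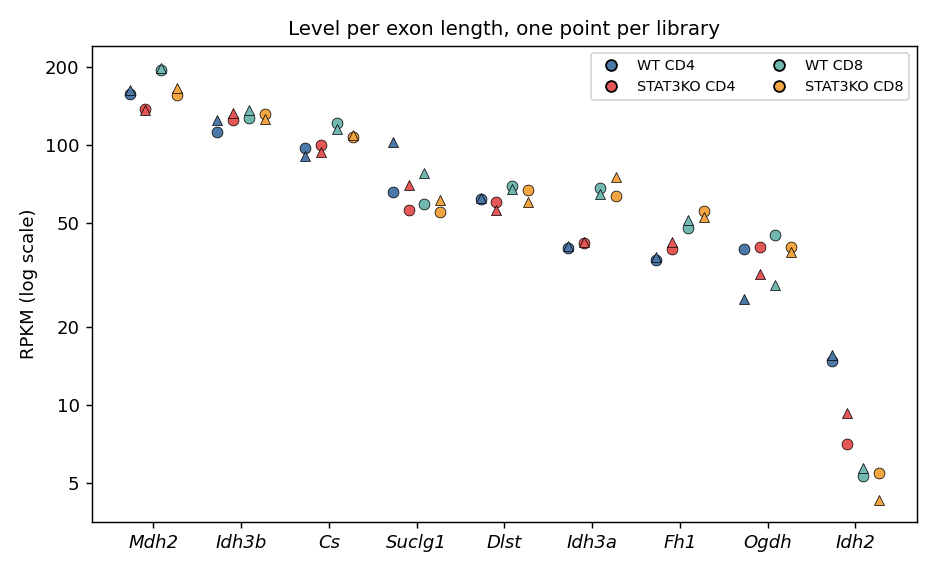
RPKM of each of the 9 genes on a log axis, with 1 point per library, circles for replicate 1, triangles for replicate 2 and colors for the 4 groups, ordered by the mean in WT CD4+ T cells. Mdh2, Idh3b and Cs lie at the top in every group, and Idh2 lies lowest, between 4.30 and 15.5 RPKM.

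The first comparison asked how CD8+ differed from CD4+ T cells within each genotype. In WT cells Idh3a, Fh1 and Cs were higher and Idh2 was lower in CD8+ T cells, 4 of 9 members, beside 23.8% of all tested genes (12.2% higher and 11.6% lower). In STAT3KO cells Idh3a and Fh1 were higher and Idh2 was lower, 3 of 9 members, beside 12.5% of all tested genes (5.84% higher and 6.67% lower). The levels that follow are CPM scaled by TMM, which corrects library sizes for composition. A gene was called where edgeR's quasi-likelihood test gave an adjusted p under 0.05. With 2 libraries per group, CD8+ and CD4+ libraries did not overlap for 59.3% of all tested genes in WT and 58.3% in STAT3KO cells.

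Idh3a (chr9:54586511-54604662, mm10, plus strand) encodes the catalytic alpha subunit of the NAD-dependent isocitrate dehydrogenase. Its CPM was 97.2 and 97.5 for CD4+ and 165 and 159 for CD8+ libraries of WT donors, and 102 and 104 for CD4+ and 154 and 185 for CD8+ libraries of STAT3KO donors. Within each genotype both CD8+ libraries lay above both CD4+ libraries. Libraries did not overlap, in either direction, for 59.3% of all tested genes in WT and 58.3% in STAT3KO cells. The CD8+/CD4+ log2 fold change was 0.73 (SE 0.11 and edgeR adjusted p = 0.00263) in WT and 0.72 (SE 0.11 and edgeR adjusted p = 0.00645) in STAT3KO cells. Within replicate 1 it was 0.76 in WT and 0.59 in STAT3KO, and within replicate 2 it was 0.70 and 0.83. The STAT3KO call was lost without STAT3KO CD4+ replicate 1 (0.70, edgeR adjusted p = 0.0627) or replicate 2 (0.71, edgeR adjusted p = 0.0545). Idh3b and Idh3g, the other subunits of the same enzyme, did not pass. Idh3b (chr2:130279309-130284451, minus strand), a regulatory subunit, had 172 to 208 CPM in CD4+ and 194 to 211 CPM in CD8+ libraries. Its log2 fold change was 0.17 in WT (95% interval -0.08 to 0.41) and -0.01 in STAT3KO (-0.26 to 0.23). The Idh3a to Idh3b ratio of RPKM was 0.316 to 0.358 in the CD4+ libraries and 0.477 to 0.599 in the CD8+ libraries.

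Idh2 (chr7:80094847-80115350, minus strand), the NADP-dependent mitochondrial enzyme, ran the other way. Its CPM was 25.3 and 26.2 for CD4+ and 9.08 and 9.85 for CD8+ libraries of WT donors, and 12.2 and 16.2 for CD4+ and 9.40 and 7.49 for CD8+ libraries of STAT3KO donors. The WT CD4+ libraries were the highest, STAT3KO CD4+ came next, and the CD8+ libraries of the genotypes overlapped. In WT cells the CD8+ mean was 36.7% of the CD4+ mean (log2 fold change -1.45, SE 0.18 and edgeR adjusted p = 0.00126). In STAT3KO cells it was 59.5% (-0.75, SE 0.18 and edgeR adjusted p = 0.0366). Within replicates 1 and 2 the values were -1.48 and -1.41 in WT, and -0.37 and -1.12 in STAT3KO. The STAT3KO call was lost without STAT3KO CD4+ replicate 1 (-0.94) or 2 (-0.54), STAT3KO CD8+ replicate 1 (-0.93) or 2 (-0.60), or WT CD8+ replicate 1 (-0.75), with edgeR adjusted p between 0.0517 and 0.185, and in a fit of the 4 libraries alone (edgeR adjusted p = 0.0622). Counts behind these values ran from 166 to 555 per library, the fewest of the 9 genes.

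Fh1 (chr1:175601378-175625635, minus strand) encodes fumarase, which hydrates fumarate to malate. Its CPM was 59.2 and 60.1 for CD4+ and 78.3 and 85.7 for CD8+ libraries of WT donors, and 65.8 and 70.9 for CD4+ and 91.6 and 88.4 for CD8+ libraries of STAT3KO donors. Within each genotype the CD8+ libraries were above the CD4+ libraries, beside the shares of all tested genes given for Idh3a. The log2 fold change was 0.46 (SE 0.10 and edgeR adjusted p = 0.0128) in WT and 0.40 (SE 0.10 and edgeR adjusted p = 0.0377) in STAT3KO cells. In WT the call was lost without WT CD4+ replicate 1 (0.43), WT CD4+ replicate 2 (0.45) or WT CD8+ replicate 2 (0.38), with edgeR adjusted p of 0.0535, 0.0540 and 0.0874. In STAT3KO it was lost when any 1 library other than WT CD4+ replicate 1 was left out (0.34 to 0.43, edgeR adjusted p from 0.0517 to 0.224). Fits of the 4 libraries alone ended both calls (edgeR adjusted p = 0.0521 in WT and 0.0502 in STAT3KO), and the STAT3KO call also ended with total counts in place of TMM (0.0534) and without the filter on low counts (0.0509).

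Citrate synthase, Cs (chr10:128337727-128362482, plus strand), had CPM of 288 and 265 for CD4+ and 359 and 344 for CD8+ libraries of WT donors, and 297 and 283 for CD4+ and 319.6 and 329 for CD8+ libraries of STAT3KO donors. The groups did not overlap within either genotype. The log2 fold change was 0.34 in WT (SE 0.10 and edgeR adjusted p = 0.0431) and 0.16 in STAT3KO (SE 0.10 and edgeR adjusted p = 0.354). The difference between these values, STAT3KO minus WT, was -0.18 (95% interval -0.51 to 0.15, edgeR adjusted p = 0.921). The WT call was lost whichever of the 8 libraries was left out (0.27 to 0.39, edgeR adjusted p from 0.0760 to 0.218), without the filter on low counts (edgeR adjusted p = 0.0929) and in a fit of the 4 libraries alone (edgeR adjusted p = 0.114). In the GENCODE annotation almost no exon sequence of the members is shared with other genes, but 1.92% of the 51-base words of Cs occur in Csl, a near copy.

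Mdh2 (chr5:135778649-135790386, plus strand), which oxidizes malate to oxaloacetate, had CPM of 203 and 207 for CD4+ and 249 and 260 for CD8+ libraries of WT donors, and 179 and 180.1 for CD4+ and 202 and 218 for CD8+ libraries of STAT3KO donors. Within each genotype CD8+ lay above CD4+, and STAT3KO CD8+ lay around the WT CD4+ level. The log2 fold change was 0.31 in WT (SE 0.10 and edgeR adjusted p = 0.0508) and 0.23 in STAT3KO (SE 0.10 and edgeR adjusted p = 0.172). With the replicate number as a block both passed (edgeR adjusted p = 0.00622 in WT and 0.0396 in STAT3KO). The WT value also passed with DESeq2 (adjusted p = 0.0125), with limma on log2(RPKM + 1) (adjusted p = 0.0468) and with a filter of at least 1 CPM in 2 libraries (edgeR adjusted p = 0.0409).

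Dlst (chr12:85110833-85134091, plus strand), the succinyltransferase core of the 2-oxoglutarate dehydrogenase complex, did not pass and lay at 159.9 to 173 CPM in CD4+ and 171 to 192 CPM in CD8+ libraries. Its CD8+/CD4+ log2 fold change was 0.15 in WT (95% interval -0.07 to 0.37) and 0.12 in STAT3KO cells (-0.10 to 0.35). Ogdh (chr11:6291597-6359094, plus strand), the dehydrogenase of that complex, had intervals of -0.42 to 0.79 in WT and -0.47 to 0.73 in STAT3KO. Suclg1 (chr6:73248505-73276907, plus strand), the alpha subunit of succinyl-CoA ligase, had intervals of -0.80 to 0.26 and -0.66 to 0.41. These were the widest intervals among the 9 members in both genotypes.

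Among the 8 further cycle subunits, 1 of 8 was higher and 0 lower in WT CD8+ than WT CD4+ T cells, and 0 of 8 were called in STAT3KO cells. Sdhc, a membrane anchor of succinate dehydrogenase, was higher in WT (log2 fold change 0.41, edgeR adjusted p = 0.0343). All 8 had fold changes above 0 in both genotypes, with medians of 0.25 in WT and 0.25 in STAT3KO, against medians of 0.00 over all tested genes. The Sdhc call was lost when any library but WT CD4+ replicate 1 was left out (edgeR adjusted p from 0.05003 to 0.185) and in a fit of the 4 libraries alone (0.0797). With the replicate block 5 of 8 were higher in WT and 5 of 8 in STAT3KO cells, beside 42.1% and 29.7% of all tested genes called in either direction with the block. The medians of the 9 members were 0.18 and 0.13.

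**Figure D2:**
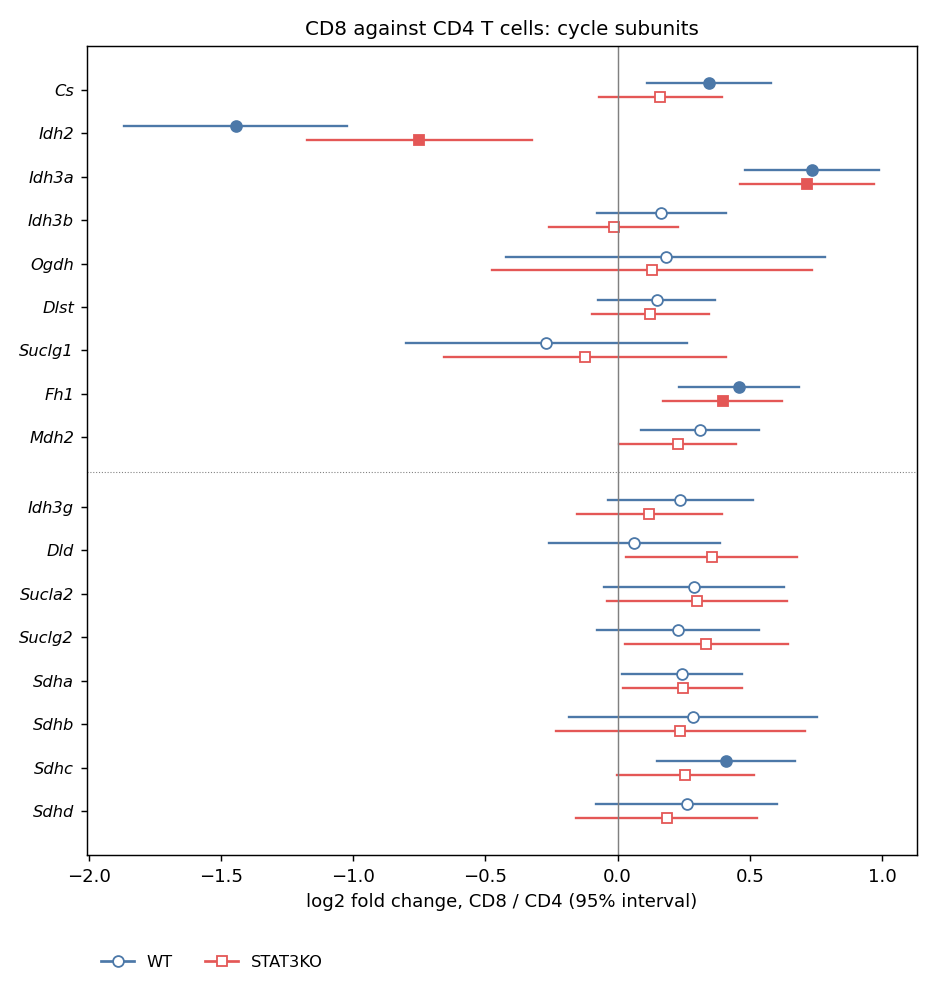
Log2 fold change of CD8+ against CD4+ T cells for the 9 members (above the dotted line) and the 8 further cycle subunits, with 95% intervals, circles for WT and squares for STAT3KO, filled where called. Idh3a and Fh1 are filled to the right and Idh2 to the left in both genotypes, Cs and Sdhc are filled for WT, and Ogdh has the widest intervals.

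Proliferation genes differed in the same comparison. The summed level of 25 such genes in CPM was 2421 and 1909 for CD4+ and 6937 and 5525 for CD8+ libraries of WT donors, and 4666 and 4501 for CD4+ and 7788 and 7602 for CD8+ libraries of STAT3KO donors. All 25 were called higher in CD8+ than CD4+ T cells in WT, and 16 of 25 in STAT3KO cells, beside 12.2% and 5.84% of all tested genes. The part of proliferation in the differences of the cycle genes was not tested. In bulk RNA, a change in how many cells of a kind were present and a change in RNA per cell cannot be told apart.

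The second comparison set STAT3KO against WT cells within each T cell type. STAT3 loss and STAT3 effect are used below as names for this comparison, which also holds the difference in host disease. In CD4+ T cells 1 of 9 members was called, Idh2, which was lower in STAT3KO, beside 11.6% of all tested genes (6.54% higher and 5.08% lower). In CD8+ T cells 0 of 9 members were called, beside 2.07% of all tested genes (1.34% higher and 0.732% lower). edgeR gave 2400 genes an unadjusted p under 0.05 in CD8+ T cells, and DESeq2 called 885 genes there against 257 by edgeR.

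The Idh2 mean in STAT3KO CD4+ was 55.0% of the WT mean, and both STAT3KO libraries lay below both WT libraries. Libraries of the genotypes did not overlap for 53.5% of all tested genes in CD4+ T cells. The log2 fold change of Idh2 was -0.86 (SE 0.18 and edgeR adjusted p = 0.0212). Within replicate 1 the value was -1.06 and within replicate 2 it was -0.69. The call was lost without WT CD4+ replicate 1 (-0.91, edgeR adjusted p = 0.0516), WT CD4+ replicate 2 (-0.85, edgeR adjusted p = 0.0871) or STAT3KO CD4+ replicate 1 (-0.69, edgeR adjusted p = 0.123). In CD8+ T cells the log2 fold change was -0.17 (95% interval -0.59 to 0.26, edgeR adjusted p = 0.699), with opposite signs in replicates 1 and 2 (0.05 and -0.40). The difference between the STAT3 effects, CD8+ minus CD4+, was 0.70 for Idh2 (95% interval 0.10 to 1.29, edgeR adjusted p = 0.530). That difference was called by edgeR for 0 of 9 members and for 0% of all tested genes, with 982 genes at an unadjusted p under 0.05, while DESeq2 called 188 genes and limma on log2(RPKM + 1) called 13.

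Levels in other lists also differed between STAT3KO and WT CD4+ T cells. Of the 25 proliferation genes, 22 were called higher, beside 6.54% of all tested genes. With the replicate block all 25 were, beside 30.1% of all tested genes called in either direction. The summed level of 4 B cell markers was 11.4 and 16.9 CPM in WT CD4+ and 27.4 and 39.8 CPM in STAT3KO CD4+ libraries. Most of that sum was Cd74, at 10.4 and 15.4 against 25.1 and 37.0 CPM. Cd79b was at 0.892 and 1.27 against 2.06 and 2.46 CPM, and Cd79a and Ms4a1 stayed between 0 and 0.273 CPM. The sum of 3 NK cell markers was 19.8 and 20.03 against 28.4 and 29.6 CPM, and the difference lay in Eomes, which T cells also express (3.72 and 2.34 against 13.3 and 10.98 CPM). Klrb1c was at 16.1 and 17.7 against 14.9 and 18.6 CPM, and Ncr1 was between 0 and 0.246 CPM. The part of these markers in the Idh2 value was not tested.

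Mdh2 was lower in STAT3KO than WT in each of the 4 replicate pairs, by log2 values of -0.19 and -0.20 in CD4+ and -0.30 and -0.25 in CD8+ T cells. The share of all tested genes that keep the same sign in all 4 pairs was not counted. For Mdh2 neither cell type passed alone (CD4+ -0.19, edgeR adjusted p = 0.243, and CD8+ -0.28, edgeR adjusted p = 0.170), and with the replicate block CD8+ passed (edgeR adjusted p = 0.0262). As the mean of the CD4+ and CD8+ effects, Mdh2 was 84.7% of WT (log2 fold change -0.23, SE 0.07 and edgeR adjusted p = 0.0474) and Idh2 was at -0.51 (SE 0.13 and edgeR adjusted p = 0.0292). These were the 2 of 9 members called for the mean effect, both lower, beside 19.3% of all tested genes (10.8% higher and 8.48% lower). The replicate block raised this to 4 of 9, beside 39.2% of all tested genes. The Mdh2 call was lost whichever of the 8 libraries was left out (-0.28 to -0.21, edgeR adjusted p from 0.0687 to 0.140) and without the filter on low counts (edgeR adjusted p = 0.0642). For Idh2 it was lost without WT CD4+ replicate 2 (-0.51), STAT3KO CD4+ replicate 1 (-0.44), WT CD8+ replicate 2 (-0.49) or STAT3KO CD8+ replicate 2 (-0.45), with edgeR adjusted p between 0.0682 and 0.0844.

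**Figure D3:**
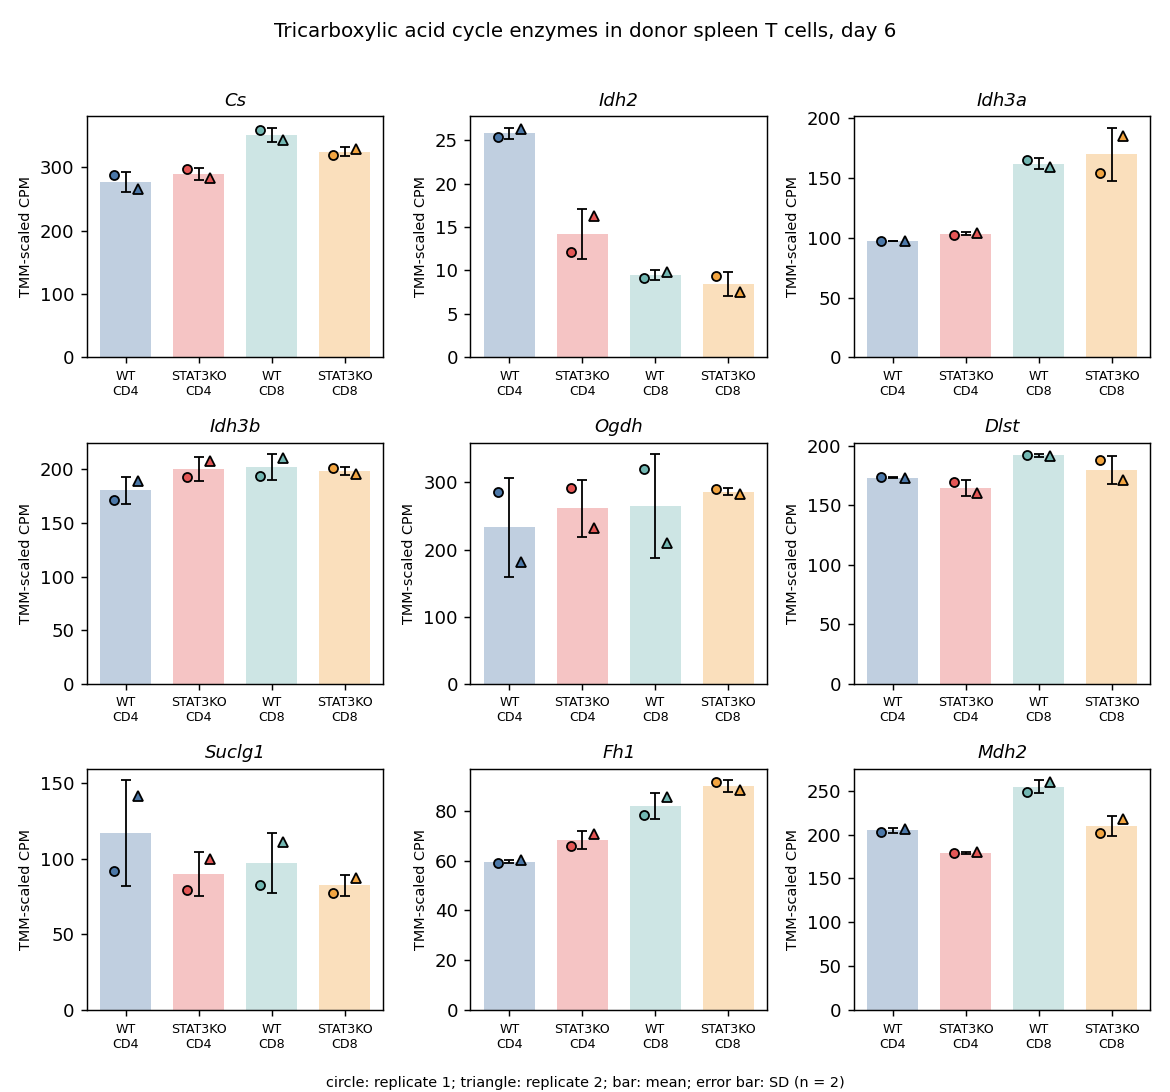
TMM-scaled CPM of the 9 genes in each library, 1 panel per gene, with circles for replicate 1, triangles for replicate 2, bars for the mean and error bars for the SD of 2 libraries. Idh2 is highest in WT CD4+ at 25.3 and 26.2 CPM and drops to 12.2 and 16.2 CPM in STAT3KO CD4+, and Mdh2 in STAT3KO lies below WT in both cell types.

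Suclg1 depended on the replicate number. Its CPM was 92.2 and 142 for CD4+ and 83.0 and 111 for CD8+ libraries of WT donors, and 79.5 and 100.3 for CD4+ and 77.6 and 87.5 for CD8+ libraries of STAT3KO donors. Replicate 2 was higher in all 4 groups, and within each replicate STAT3KO was below WT. How many of all tested genes had such an order was not counted. Without the block the STAT3KO/WT log2 fold change was -0.38 in CD4+ (SE 0.23 and edgeR adjusted p = 0.338) and -0.31 for the mean effect (SE 0.16 and edgeR adjusted p = 0.227). With the replicate block the values were -0.36 (edgeR adjusted p = 0.0223) and -0.29 (edgeR adjusted p = 0.00950). Ogdh also split by number but the other way, with CPM of 286 and 181 for CD4+ and 319 and 209.6 for CD8+ libraries of WT donors, and 292 and 232 for CD4+ and 290.5 and 283 for CD8+ libraries of STAT3KO donors. Its STAT3KO/WT value did not pass with or without the block (CD4+ 0.17, 95% interval -0.44 to 0.77, and CD8+ 0.12, interval -0.49 to 0.72). Among all tested genes with up to 1500 exon bases, the median log2 difference of replicate 2 from replicate 1 was 0.13 in WT CD4+, 0.11 in STAT3KO CD4+, 0.06 in WT CD8+ and -0.03 in STAT3KO CD8+ T cells. For genes over 5000 exon bases it was -0.10, -0.06, -0.03 and 0.03. Suclg1 has 1392 exon bases and Ogdh 7106, and the part of length in their split was not tested.

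The remaining members did not pass for STAT3 loss in either cell type. Fh1 was at 0.20 in CD4+ (95% interval -0.03 to 0.42) and 0.13 in CD8+ T cells (-0.09 to 0.36), and its mean effect of 0.17 passed only with the replicate block (edgeR adjusted p = 0.0425, against 0.135 without it). Cs was at 0.07 (-0.17 to 0.30) and -0.11 (-0.35 to 0.12). Idh3a was at 0.09 (-0.17 to 0.34) and 0.07 (-0.18 to 0.32), and Idh3b was at 0.15 (-0.09 to 0.40) and -0.03 (-0.27 to 0.22). Dlst was at -0.07 (-0.29 to 0.15) and -0.10 (-0.32 to 0.13). For these 5 genes the upper ends of the intervals reached 0.42 at most.

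None of the 8 further cycle subunits was called for STAT3 loss in CD4+ T cells, in CD8+ T cells or for the mean effect. Dld, the lipoamide dehydrogenase shared by several complexes, had 144 and 155 CPM in WT CD8+ and 199.7 and 199.7 CPM in STAT3KO CD8+ libraries. These did not overlap, as for 49.7% of all tested genes in CD8+ T cells. The log2 fold change of Dld was 0.42 (SE 0.14 and edgeR adjusted p = 0.158). It passed with the replicate block in CD8+ T cells (edgeR adjusted p = 0.0126) and for the mean effect (edgeR adjusted p = 0.00782), and no other subunit did. For the 9 members the median STAT3KO/WT value came to 0.07 (CD4+) and -0.10 (CD8+), and that of the 8 further subunits was 0.10 and 0.05, against 0.02 and -0.01 over all tested genes.

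**Figure D4:**
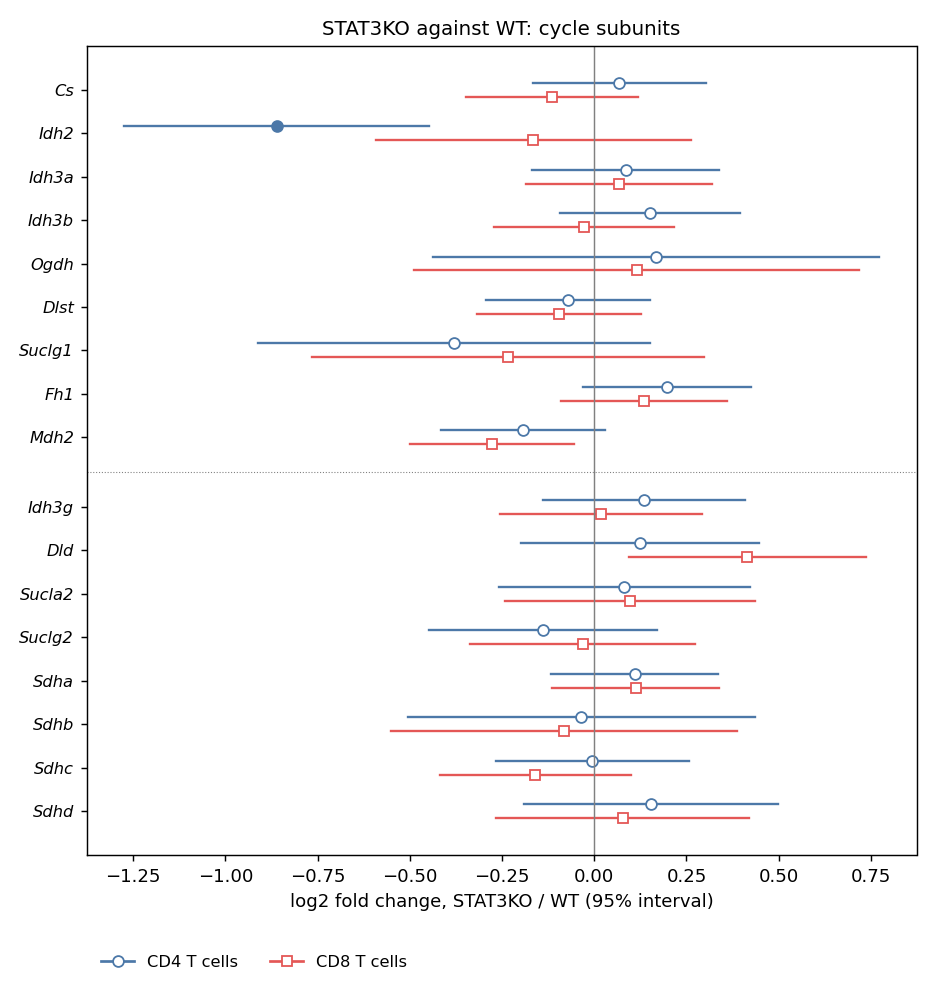
Log2 fold change of STAT3KO against WT for the 9 members (above the dotted line) and the 8 further cycle subunits, with 95% intervals, circles for CD4+ and squares for CD8+ T cells, filled where called. Idh2 in CD4+ T cells, at -0.86, is the only filled point.

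Among 10 tested genes around cytosolic citrate and malate, which feed or drain the cycle, 3 were higher and 0 lower in STAT3KO CD4+ T cells, beside 6.54% and 5.08% of all tested genes. Idh1, the cytosolic NADP-dependent isocitrate dehydrogenase, was measured at 5.39 and 5.67 CPM in the WT libraries and was higher, at 9.45 and 10.8 CPM, in the STAT3KO libraries (log2 fold change 0.87, SE 0.19 and edgeR adjusted p = 0.0237). Acss2, which makes cytosolic acetyl-CoA from acetate, rose by 0.72 (edgeR adjusted p = 0.0421), and Me2, a malic enzyme placed in the list for its substrate although it is mitochondrial, rose by 0.47 (edgeR adjusted p = 0.0272). Idh1 therefore moved up where Idh2 moved down, and the Idh1 to Idh2 ratio of RPKM was 0.148 and 0.151 for CD4+ and 0.555 and 0.683 for CD8+ libraries of WT donors, and 0.543 and 0.464 for CD4+ and 0.859 and 1.11 for CD8+ libraries of STAT3KO donors. In CD8+ T cells 0 of those 10 genes were called for STAT3 loss. The one furthest from 0 was Slc25a1, the mitochondrial citrate carrier (-0.51, edgeR adjusted p = 0.101). With the replicate block 3 of the 10 were higher and 1, Slc25a1, was lower in CD4+, and in CD8+ T cells Idh1 and Acss2 were higher and Slc25a1 and Got1 lower (edgeR adjusted p from 0.0132 to 0.0435), beside 30.1% and 18.2% of all tested genes called in either direction.

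**Figure D5:**
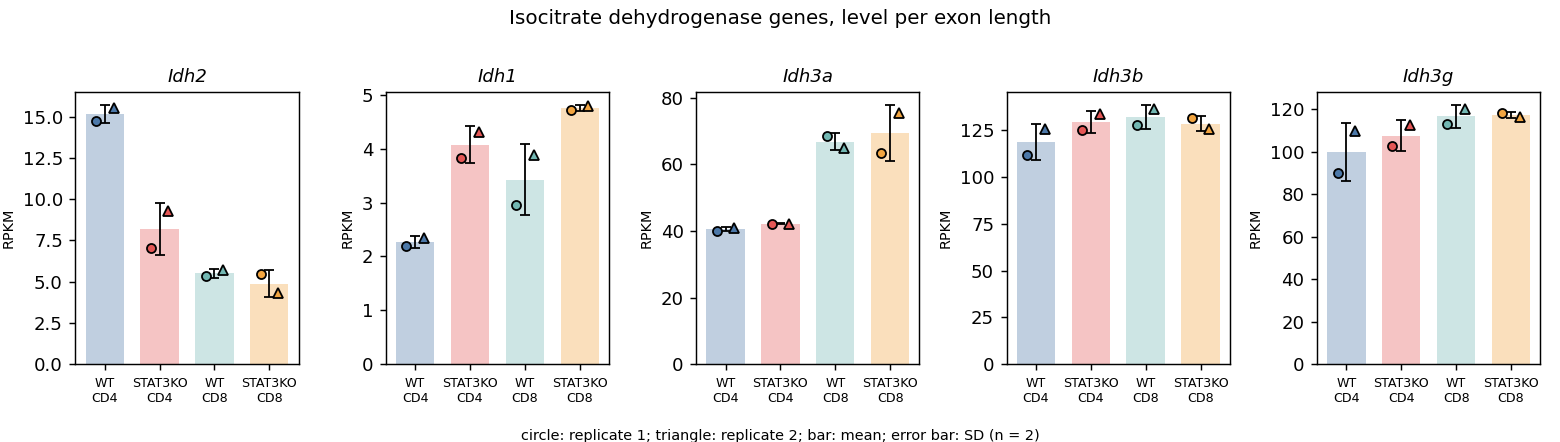
RPKM of the 5 isocitrate dehydrogenase genes in each library, circles for replicate 1, triangles for replicate 2, bars for the mean and error bars for the SD of 2 libraries, with a scale of its own in each panel. Across the groups, Idh2 has its own highest level and Idh1 its own lowest level in WT CD4+ T cells. Idh3a is higher in both CD8+ groups than in both CD4+ groups.

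The other neighbouring lists held 0 to 2 calls each in STAT3KO CD4+ T cells, beside 11.6% of all tested genes. Of 15 tested genes for pyruvate entry, Pdk2, a kinase that inhibits pyruvate dehydrogenase, was lower (2.89 and 3.64 CPM in WT, 0.650 and 1.19 CPM in STAT3KO, log2 fold change -1.82, edgeR adjusted p = 0.0146). Of 10 tested genes for glutamine use and refilling of the cycle, Pck2, the mitochondrial enzyme that makes phosphoenolpyruvate from oxaloacetate, was higher (0.92, edgeR adjusted p = 0.0346). Bcat1, which starts branched-chain amino acid breakdown, was lower among 10 tested genes of the branched-chain list (-1.20, edgeR adjusted p = 0.0270). That list holds genes of branched-chain amino acid and propionate breakdown and also Ogdhl, a relative of Ogdh. Of 20 tested genes for mitochondrial biogenesis and import, Tfb1m, which methylates mitochondrial ribosomal RNA, was higher (0.93, edgeR adjusted p = 0.0150) and Tomm40, the channel of the outer membrane translocase, was lower (-0.57, edgeR adjusted p = 0.0261). None of the 10 genes for cycle metabolites and assembly factors was called. All 8 calls in these lists and around cytosolic citrate, Idh1 included, were lost without WT CD4+ replicate 2 (edgeR adjusted p from 0.0736 to 0.176) and without STAT3KO CD4+ replicate 1 (0.0669 to 0.229). Those of Pck2, Idh1, Me2, Acss2, Tfb1m and Tomm40 were also lost without WT CD4+ replicate 1 (0.0570 to 0.115), and these and Bcat1 without STAT3KO CD4+ replicate 2 (0.0712 to 0.178). Leaving out a CD8+ library ended the calls of Me2 and Acss2 (WT replicate 1, 0.0542 and 0.0657), Acss2 (WT replicate 2, 0.0605), Pck2, Me2 and Tomm40 (STAT3KO replicate 1, 0.0519 to 0.0651) or Pck2 and Me2 (STAT3KO replicate 2, 0.0642 and 0.0569). The fit of the 4 libraries alone ended those of Idh1, Pck2 and Me2 (edgeR adjusted p from 0.0502 to 0.0876), and limma on log2(RPKM + 1) those of Pck2 and Acss2 (adjusted p = 0.0509 and 0.0651). In CD8+ T cells none of these lists had a called gene, and the values furthest from 0 were those of Pdk2 (-1.09), Got2 (-0.33), Ogdhl (-1.20), Nadk2 (0.51) and Tfb1m (0.67), with edgeR adjusted p between 0.0733 and 0.262. Of these, Pdk2, Got2, Nadk2 and Tfb1m passed with the replicate block (edgeR adjusted p from 0.0121 to 0.0201). Blocked calls for CD4+ T cells were 0 higher and 2 lower for pyruvate entry, 1 and 0 for glutamine use, 1 and 2 for the branched-chain list, 0 and 0 for metabolites and assembly factors, and 2 and 5 for biogenesis and import. For CD8+ T cells they were 0 and 1, 0 and 1, 1 and 1, 1 and 0, and 1 and 4 in the same order.

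Between CD8+ and CD4+ T cells, the cytosolic citrate and malate genes had 4 of 10 higher and 1 lower in WT, and 2 higher and 2 lower in STAT3KO cells. Of all tested genes, 12.2% were higher and 11.6% lower in WT, and 5.84% and 6.67% in STAT3KO cells. Me2 was higher in both (0.82, edgeR adjusted p = 0.00132 in WT, and 0.47, edgeR adjusted p = 0.0248 in STAT3KO), and Slc25a1 was lower in both (-0.66, edgeR adjusted p = 0.0103, and -0.71, edgeR adjusted p = 0.0156). Mdh1, the cytosolic malate dehydrogenase, was also higher in both (0.42, edgeR adjusted p = 0.0483, and 0.49, edgeR adjusted p = 0.0419). Sirt3, a mitochondrial deacetylase, was higher in CD8+ T cells in both genotypes (1.32, edgeR adjusted p = 0.00310, and 1.05, edgeR adjusted p = 0.0164), and Sdhaf1, an assembly factor of succinate dehydrogenase, was lower (-0.83, edgeR adjusted p = 0.00327, and -0.78, edgeR adjusted p = 0.00942). For glutamine use, Slc25a22, a mitochondrial glutamate carrier, was lower in both (-0.57, edgeR adjusted p = 0.0128, and -0.53, edgeR adjusted p = 0.0298), and Got2, the mitochondrial aspartate aminotransferase, was higher in WT (0.50, edgeR adjusted p = 0.00885). Mpc1, a subunit of the mitochondrial pyruvate carrier, was lower in WT (-1.02, edgeR adjusted p = 0.0264). In WT, Slc25a10, the mitochondrial dicarboxylate carrier, was higher (0.72, edgeR adjusted p = 0.0295), Tfb1m was higher (0.85, edgeR adjusted p = 0.0103), and Idh1 stood at the threshold (0.61, edgeR adjusted p = 0.049999, against 0.0702 by DESeq2). In STAT3KO, Aco1, which encodes a cytosolic iron-sulfur protein, was lower (-0.51, edgeR adjusted p = 0.0214). No gene of the branched-chain list was called in either genotype. In that list Bckdhb in WT (-0.83, edgeR adjusted p = 0.0696) and Ogdhl in STAT3KO (1.03, edgeR adjusted p = 0.324) had the values furthest from 0. Pdk2 (1.26, edgeR adjusted p = 0.0504) and Ppargc1b (-0.62, edgeR adjusted p = 0.0942) were the furthest for pyruvate entry and biogenesis in STAT3KO, and with the replicate block Pdk2, Ppargc1b and, in WT, Bckdhb passed (edgeR adjusted p = 0.0108, 0.0354 and 0.0186). In WT the blocked calls numbered 4 higher and 2 lower for cytosolic citrate and malate, 3 and 2 for pyruvate entry, 5 and 1 for glutamine use, 2 and 1 for the branched-chain list, 1 and 2 for metabolites and assembly factors, and 6 and 3 for biogenesis and import. In STAT3KO they numbered 2 and 2, 3 and 0, 1 and 1, 1 and 1, 1 and 1, and 3 and 2 in that order. With the block, 42.1% of all tested genes were called in WT and 29.7% in STAT3KO cells, in either direction.

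The WT calls of Me2, Sirt3 and Sdhaf1 held whichever library was left out, those of Slc25a1 and Got2 were lost without WT CD8+ replicate 2 (edgeR adjusted p = 0.0563 and 0.0573), and those of Slc25a22 and Mpc1 were lost without WT CD4+ replicate 1 (0.0532 and 0.0777) or WT CD8+ replicate 1 (0.0827 and 0.0628), Mpc1 also without replicate 2 of WT CD4+ (0.0920) or WT CD8+ (0.129). The call of Slc25a10 was lost without either WT CD4+ library, either STAT3KO CD4+ library or WT CD8+ replicate 1 (edgeR adjusted p from 0.0558 to 0.182), and that of Tfb1m without WT CD4+ replicate 2 or WT CD8+ replicate 1 (0.0506 and 0.0739). The WT call of Mdh1 was lost when any library but WT CD4+ replicate 2 was left out (edgeR adjusted p from 0.0837 to 0.218), and that of Idh1 when any but WT CD8+ replicate 1 was (0.0798 to 0.254). In the fit of the 4 libraries alone the calls of Mdh1, Idh1, Slc25a22, Mpc1 and Slc25a10 were lost (edgeR adjusted p from 0.0605 to 0.137). The STAT3KO calls of Me2, Slc25a1, Slc25a22, Mdh1, Aco1, Sirt3 and Sdhaf1 were all lost without STAT3KO CD4+ replicate 1 (edgeR adjusted p from 0.0758 to 0.254). Without STAT3KO CD4+ replicate 2 the calls of Me2, Slc25a22, Mdh1, Aco1 and Sirt3 were lost (0.0554 to 0.128), without STAT3KO CD8+ replicate 1 all of them but Sdhaf1 (0.0730 to 0.184), and without STAT3KO CD8+ replicate 2 all but Sirt3 (0.0581 to 0.136). Mdh1 was lost there also without either WT CD8+ library (0.0679 and 0.0691).

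Likeness of pattern was measured as the root mean square difference of log2 CPM, each gene centered on its mean over the 8 libraries, against 10270 other genes. For Idh2 the nearest were Cpm, a membrane carboxypeptidase gene, at 0.14 and Tnfrsf14, which encodes the receptor HVEM, at 0.15, both small beside the spread of 0.64 in Idh2 itself. Cpm had CPM of 37.8 and 49.9 for CD4+ and 14.9 and 18.6 for CD8+ libraries of WT donors, and 24.6 and 28.3 for CD4+ and 15.5 and 14.3 for CD8+ libraries of STAT3KO donors. Its order, highest in WT CD4+ and next in STAT3KO CD4+ libraries, follows from its choice by likeness to Idh2 in these same libraries. The genes nearest to Idh3a were Nap1l1 (0.08), a histone chaperone gene, and Ipo5 (0.09), an importin gene. Nearest to Fh1 were 2810013P06Rik (0.05) and Brd9 (0.05), nearest to Cs were Uba1 (0.04) and Bsg (0.04), and nearest to Mdh2 were Eftud2 (0.03) and Man2b1 (0.04). The 8 libraries shared their sort, tissue and replicate numbers, and no test was made of these distances.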

How the data were processed

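RNA was measured in 8 libraries, 2 in each of 4 groups. The authors aligned reads with STAR and counted them per RefSeq gene with htseq-count, per the methods, and the labels name the build GRCm38 (mm10). The deposited tables held raw counts per gene, and RPKM that the authors computed from them per exon length and library reads. The growth and treatment text in the labels describes another cell line and was not used. Strand and mapping settings are not given in the sources used here. Genes that filterByExpr (minimum count 10) kept were tested with edgeR 4.0.16 (quasi-likelihood, TMM, R 4.3.3) in one fit of all 8 libraries, two-sided, with Benjamini-Hochberg adjustment over 12428 genes. The 95% intervals cover the spread between libraries. DESeq2 1.42.0 and limma 3.58.1 were alternatives. The fit was also run on counts simulated from its own estimates of spread. These held no replicate effect, so the run cannot show how the fit handles paired libraries. In all 6 pairs of groups, deviations of same-numbered libraries correlated across genes (r from 0.444 to 0.731), so the numbers, which come from the sample titles, were taken as pairing libraries, and values with the replicate block are given where they change the call of a member, and as counts of calls for the neighbouring lists. Members and lists were chosen with earlier results of these data known. Some genes of the lists are not reported here. Named are all members, the further cycle subunits, up to 4 called genes of each neighbouring list (or the furthest from 0), and the 2 genes most like a called member.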

Additional observations from a re-analysis of the deposited data

How the results depend on the processing

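No member fold change that was called turned its sign under any alternative run; over all members, comparisons and alternatives, 818 values kept their side of the threshold, 48 lost a call, 9 gained one and 25 uncalled values changed sign. With the replicate block, genes called rose to 3747 for STAT3 loss in CD4+, 2258 in CD8+, 4874 for the mean effect, 403 for the difference of effects, 5232 for CD8+ against CD4+ in WT and 3689 in STAT3KO, from 1444, 257, 2399, 0, 2960 and 1555. Members called became 2 in CD4+, 1 in CD8+ and 4 for the mean effect, and the block changed no other call of a member in these comparisons than those given in the report. For STAT3 loss in CD8+ T cells DESeq2 called 885 genes, no filter on low counts 454 and a fit of the 4 libraries 37. For the difference of effects DESeq2 called 188 genes, no filter 44 and limma on log2(RPKM + 1) 13. In the 4-library fits, 1919 genes and 2 members were called for CD8+ against CD4+ in WT, and 1 member in STAT3KO, and without the filter 1 member was called for the mean effect. With 1 library left out, which assumes that a lone library varies like the other groups, genes called ranged from 412 to 1307 for STAT3 loss in CD4+, 7 to 224 in CD8+, 1214 to 2165 for the mean effect, 1546 to 2598 for CD8+ against CD4+ in WT and 457 to 1554 in STAT3KO. Members called then ranged from 0 to 1, stayed at 0, and ranged from 0 to 1, 2 to 3 and 0 to 3. These fits use fewer libraries, and the cause of each lost call was not tested. The lowest count of a member in any library was 166, for Idh2.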

Other observations

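Of 20 tested genes for mitochondrial import and biogenesis, 1 was higher and 4 were lower in STAT3KO than WT for the mean of the CD4+ and CD8+ effects, beside 10.8% and 8.48% of all tested genes. With the replicate block 2 were higher and 9 lower, beside 39.2% of all tested genes called in either direction. Tomm40 had 39.8 and 38.6 CPM in WT CD4+ against 27.0 and 25.6 CPM in STAT3KO CD4+ libraries, and 44.7 and 36.0 CPM against 25.9 and 26.3 CPM in CD8+ libraries (log2 fold change -0.60, edgeR adjusted p = 0.00482). Hspa9, the matrix chaperone that pulls proteins into mitochondria, ran from 191 to 243 CPM in WT and from 134 to 181 CPM in STAT3KO libraries (-0.47, edgeR adjusted p = 0.0119). These ranges did not overlap, as for 13.2% of all tested genes. Pprc1, a coactivator related to PGC-1alpha, was also lower (-0.59, edgeR adjusted p = 0.0181), a call lost without STAT3KO CD4+ replicate 2 (-0.51, edgeR adjusted p = 0.0648) or STAT3KO CD8+ replicate 2 (-0.55, edgeR adjusted p = 0.0618). Tfb1m was higher (0.80, edgeR adjusted p = 0.00506). The list median was -0.20, against 0.01 over all tested genes.

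Of the 10 tested genes of the branched-chain list, which covers propionate breakdown and Ogdhl as well, 1 was higher and 3 were lower for the same mean effect, beside 10.8% and 8.48% of all tested genes. With the replicate block 1 was higher and 5 were lower, beside 39.2% of all tested genes called in either direction. Bcat1 was at -0.97 (edgeR adjusted p = 0.0113). Pccb, a subunit of propionyl-CoA carboxylase, was at -0.31 (edgeR adjusted p = 0.0382), a call lost when any 1 library other than WT CD8+ replicate 1 was left out (edgeR adjusted p from 0.0548 to 0.127). Ogdhl, a low-level relative of Ogdh at 0.10 to 1.09 CPM, was at -1.37 (edgeR adjusted p = 0.0472), lost whichever library was left out (0.0510 to 0.145) and under DESeq2 (adjusted p = 0.0991). Mcee, the methylmalonyl-CoA epimerase, was higher at 0.56 (edgeR adjusted p = 0.0318), lost when any library other than WT CD4+ replicate 2 or STAT3KO CD4+ replicate 1 was left out (0.0688 to 0.113).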
